A study of Mus musculus with 10 samples.

Results

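The genes described here are 8 members of the MHC class II antigen presentation pathway, measured in macrophages of 6 mouse tissues and in cultured macrophages. The members were listed by gene symbol (Ciita, Cd74, H2-Aa, H2-Ab1, H2-Eb1, H2-DMa, H2-DMb1 and H2-Oa). They are 8 of 17711 named genes, read by 12 of 46632 probes. All 8 passed the detection filter and were tested among 12845 transcripts.

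Expression was measured on 10 single-colour Illumina bead arrays, in which labelled cRNA binds to gene-specific probes. Intestinal, adipose and peritoneal macrophages had 2 arrays each, whereas Kupffer cells, which reside in liver, splenic macrophages, alveolar macrophages of the lung and bone marrow-derived macrophages (BMDM) had 1 array each. All cells came from untreated male C57BL/6 mice of 8 to 10 weeks, with no genetic modification labelled. BMDM had spent 7 days in culture under M-CSF, which drives marrow progenitors to become macrophages. No source used here says how the tissue cells were isolated or sorted or that paired arrays came from separate animals. The p-values therefore measure the spread between arrays, which may be technical. A group with 1 array was assumed to vary like the groups with 2.

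MHC class II molecules present peptides from endocytosed proteins to CD4+ T cells. An alpha and a beta chain assemble on the invariant chain Cd74, which blocks the groove until H2-DM exchanges its last fragment for a peptide, and H2-DO restrains H2-DM. Transcription of these genes depends on Ciita, a coactivator that binds no DNA itself but docks on a complex of RFX, CREB and NF-Y proteins at a shared promoter module, and interferon gamma is its best known inducer in macrophages.

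The shared promoter module is shown first because the class II chain genes are known for being transcribed together from it. RefSeq sequences (GRCm38.p6) from 250 bases before to 50 after the start were matched for 5 of the 8 members, and the stretches around the module follow 5′ to 3′ on the gene's strand. Capitals mark GATTGG, the inverted CCAAT of the Y box bound by NF-Y, and the letters TGATG or TGACG, found in the X region, where their first base lay 18 to 30 bases before that of GATTGG. Where such X-region strings overlapped, only the one farthest from GATTGG is marked.
H2-Aa (chr17:34287852-34287927, minus strand): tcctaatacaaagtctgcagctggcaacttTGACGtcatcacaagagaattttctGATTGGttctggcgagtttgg
H2-Eb1 (chr17:34305752-34305827, plus strand): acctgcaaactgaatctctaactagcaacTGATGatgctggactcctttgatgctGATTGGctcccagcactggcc
H2-DMb1 (chr17:34153074-34153149, plus strand): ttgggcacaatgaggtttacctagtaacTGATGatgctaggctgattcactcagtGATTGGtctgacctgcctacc
H2-Oa (chr17:34092280-34092355, plus strand): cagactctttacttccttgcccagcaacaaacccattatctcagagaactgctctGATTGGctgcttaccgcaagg
H2-Ob (chr17:34238792-34238867, plus strand): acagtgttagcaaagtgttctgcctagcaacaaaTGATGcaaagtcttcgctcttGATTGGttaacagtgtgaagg
Measured from the marked string, the pair of motifs was spaced 25 bases in H2-Aa, 26 in H2-Eb1, 27 in H2-DMb1 and 21 in H2-Ob, the partner chain of H2-Oa. In H2-Eb1 and H2-DMb1 a further TGATG overlaps the marked one, nearer to GATTGG and also within 18 to 30 bases of it. H2-Oa carried GATTGG but neither X-region string at that distance. Of the H2-DMa starts in this promoter set, the first had no GATTGG in the window. The second had it 199 bases before the start without an X-region string. Both windows (chr17:34122582-34122881 and chr17:34125268-34125567) lie inside the gene, which begins at chr17:34119693. The promoter at that position was not read, so the module of H2-DMa is left undescribed. On both strands of 32851 promoters, GATTGG occurred in 16.1%, and the pair, which cannot overlap at this spacing, in 0.417%. A match describes letters and does not show binding.

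Genomic positions are those of RefSeq on GRCm38.p6. The members H2-Oa, H2-DMa, H2-DMb1, H2-Ab1, H2-Aa and H2-Eb1, lie in the MHC on chromosome 17, with H2-Oa at chr17:34092379-34095234 and H2-Eb1 at chr17:34305867-34316674. Ciita lies apart at chr16:10480014-10531064 and Cd74 at chr18:60803849-60812652.

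Intestinal macrophages had the highest group mean for 7 of the 8 members (for H2-Ab1 it was adipose macrophages). BMDM had the lowest mean for all 8, and peritoneal macrophages came next above BMDM for all 8. Adipose, Kupffer, splenic and alveolar macrophages lay between, in an order that differed from gene to gene. The order of the lowest groups was not firm for every member. Peritoneal macrophages over BMDM did not pass for Ciita, H2-DMb1 and H2-Oa, and neither group had Ciita or H2-Oa detected. For H2-Oa, 1 peritoneal array (5.28) lay below BMDM (5.41). All 8 members differed among the 7 groups in limma's F test (adjusted p 4.56e-06 to 0.000102), as did 79.6% of all transcripts, so passing that test does not set the members apart. Their spread was wide: the highest and the lowest group mean of a member lay 4.32 to 7.59 apart on the log2 scale, with a median of 5.99, against a median of 1.66 over all transcripts. In this bulk RNA, fewer cells of a type and less RNA per cell cannot be told apart.

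**Figure D1:**
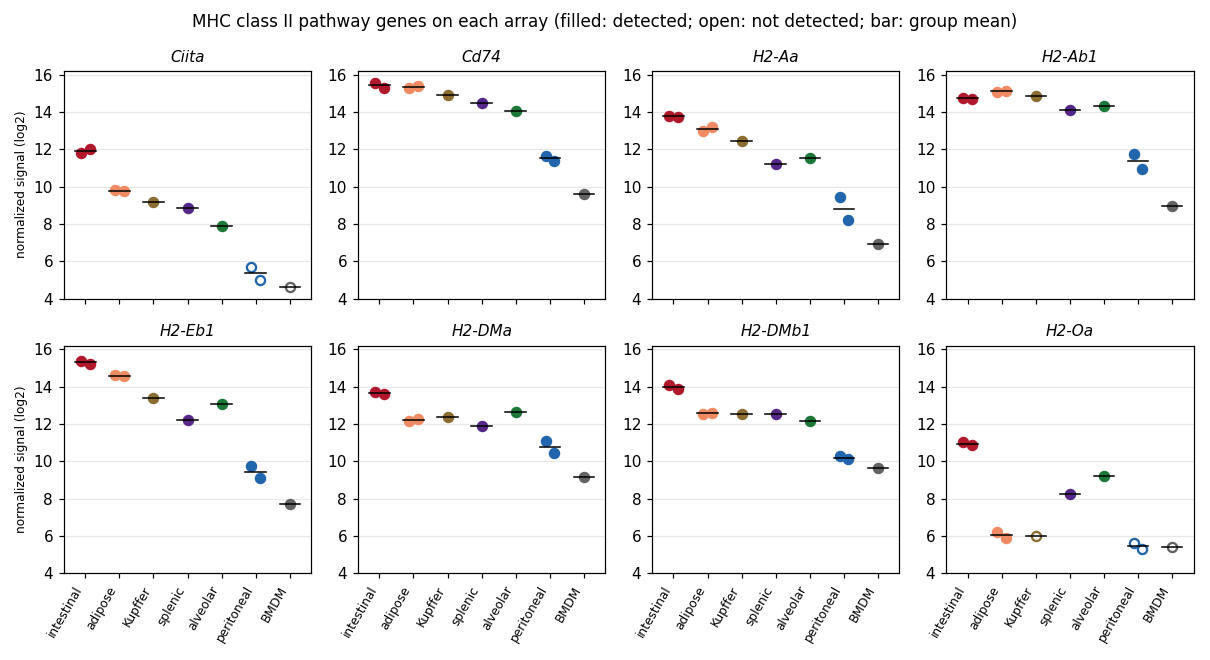
Normalized log2 signal of the probe used for each of the 8 genes (one panel per gene) on each array, by group; filled points are detected, open points are not, and the bar is the group mean. Ciita is at 11.78 and 11.99 on the intestinal arrays, against 4.59 in BMDM, and H2-Oa is high in intestinal, alveolar and splenic macrophages only.

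Ciita, the coactivator, is described first. Its normalized log2 signal was 11.78 and 11.99 in intestinal, 9.79 and 9.76 in adipose, 9.16 in Kupffer, 8.87 in splenic and 7.89 in alveolar macrophages, against 5.68 and 5.01 in peritoneal macrophages and 4.59 in BMDM. The 7 arrays of the first 5 groups were detected (detection p under 0.01), and the peritoneal and BMDM arrays were not. Relative to BMDM, Ciita was therefore at least 52.4-fold higher in intestinal, 12.2-fold in adipose, 7.95-fold in Kupffer, 6.47-fold in splenic and 3.28-fold in alveolar macrophages, using the lowest signal of any detected probe as the bound (limma adjusted p 5.75e-06 to 0.000361). Intestinal macrophages also exceeded adipose macrophages, by 2.11 ± 0.23 (log2 difference ± SE, adjusted p = 0.00056), with no overlap of arrays.

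The order below the intestinal group was less sharp. Adipose over Kupffer (0.61 ± 0.29, adjusted p = 0.142), Kupffer over splenic (0.30, 0.591) and splenic over alveolar (0.98, 0.0569) did not pass, while alveolar over peritoneal macrophages did (2.54 ± 0.29, 0.000521). These Ciita values come from the probe matched to the NM_007575 transcript. The gene's other probe, matched to the cDNA AK040723, stayed between 5.13 and 5.86, was detected on 1 array (intestinal replicate 1) and gave no difference in the F test (adjusted p = 0.107), so the Ciita result rests on 1 probe.

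The classical chains form the peptide-binding molecule. H2-Aa, the alpha chain of I-A, had 13.78 and 13.73 in intestinal, 12.96 and 13.18 in adipose, 12.45 in Kupffer, 11.18 in splenic and 11.55 in alveolar macrophages, against 9.44 and 8.19 in peritoneal macrophages and 6.93 in BMDM. Every tissue array lay above BMDM, and the peritoneal arrays lay below those of the other tissues. Against BMDM the differences were 6.82 ± 0.45 in intestinal macrophages, a 113-fold difference (adjusted p = 3.61e-05), and 1.88 ± 0.45 in peritoneal macrophages (adjusted p = 0.014). The peritoneal arrays were 1.25 apart for this gene, the widest gap between paired arrays of any member, and the steps between intestinal, adipose, Kupffer, alveolar and splenic macrophages (0.37 to 0.90) did not pass.

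H2-Ab1, its beta chain partner, had 14.74 and 14.69 in intestinal, 15.04 and 15.14 in adipose, 14.86 in Kupffer, 14.12 in splenic and 14.30 in alveolar macrophages, against 11.75 and 10.94 in peritoneal macrophages and 8.94 in BMDM. None of the 4 steps between the first 5 tissues passed with this probe (adjusted p 0.324 to 0.763), although splenic minus adipose macrophages did (-0.97 ± 0.32, 0.0494). The breaks were splenic over peritoneal macrophages (2.78 ± 0.32, adjusted p = 0.000525) and peritoneal macrophages over BMDM (2.41 ± 0.32, 0.00107). It was the member whose mean was highest in adipose rather than intestinal macrophages, but that order depended on the probe: intestinal minus adipose was -0.38 ± 0.26 with this probe (adjusted p = 0.326) and 0.41 ± 0.24 with the other, and neither passed. The other probe also spread these tissues further, with splenic minus intestinal macrophages at -2.00 ± 0.30 (adjusted p = 0.002) and alveolar minus intestinal macrophages at -1.39 ± 0.30 (0.0086).

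H2-Eb1, the beta chain of the I-E type, whose alpha partner H2-Ea is defective in the C57BL/6 strain and was detected on no array, had the widest spread among the probes used. It stood at 15.38 and 15.23 in intestinal, 14.61 and 14.58 in adipose, 13.39 in Kupffer, 12.20 in splenic and 13.07 in alveolar macrophages, against 9.74 and 9.11 in peritoneal macrophages and 7.71 in BMDM. Its range was 193-fold, from 7.59 ± 0.28 between intestinal macrophages and BMDM (adjusted p = 5.71e-06), and no peritoneal array overlapped another tissue. Adipose macrophages exceeded Kupffer cells by 1.21 ± 0.28 (adjusted p = 0.0148), whereas intestinal over adipose macrophages, 0.71 ± 0.22, missed the threshold (0.0523). Its raw signal reached 94.7% of an array's maximum, which leaves little room above its top values.

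Cd74, the invariant chain that guides class II chains to endosomes, was bright on all arrays. Its signal was 15.54 and 15.30 in intestinal, 15.27 and 15.38 in adipose, 14.90 in Kupffer, 14.49 in splenic and 14.02 in alveolar macrophages, against 11.65 and 11.39 in peritoneal macrophages and 9.59 in BMDM. Intestinal and adipose arrays overlapped, and the steps down to alveolar macrophages were 0.10 to 0.47 (adjusted p 0.166 to 0.721). Alveolar over peritoneal macrophages (2.50 ± 0.21, adjusted p = 0.000126) and peritoneal macrophages over BMDM (1.93 ± 0.21, 0.000449) passed.

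This Cd74 probe gave the brightest raw signal of all probes on the intestinal replicate 1 array (100% of that array's maximum), so its top values had little room above them. The dimmer probe of the gene had 14.65 and 14.59 in intestinal, 13.57 and 13.35 in adipose, 11.84 in Kupffer, 10.35 in splenic and 10.31 in alveolar macrophages, against 7.30 and 8.10 in peritoneal macrophages and 5.37 in BMDM, where it was not detected. The probes correlated at r = 0.952 over the 10 arrays, but the lowest and highest array lay 9.29 apart with the dimmer probe against 5.95 with the brighter one. With the dimmer probe, intestinal macrophages exceeded adipose macrophages by 1.16 ± 0.26 (adjusted p = 0.0157 in a fit of all probes).

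H2-DM edits the peptides that class II molecules carry. H2-DMa, its alpha chain, had 13.74 and 13.59 in intestinal, 12.18 and 12.28 in adipose, 12.35 in Kupffer, 11.92 in splenic and 12.66 in alveolar macrophages, against 11.10 and 10.47 in peritoneal macrophages and 9.16 in BMDM. Intestinal macrophages stood above the next group, the alveolar one, by 1.01 ± 0.28 (adjusted p = 0.0234) and above adipose macrophages by 1.44 ± 0.23 (0.003). The 4 groups from alveolar down to splenic macrophages were not separated (steps of 0.12 to 0.31), and splenic over peritoneal macrophages (1.14 ± 0.28, 0.0156) and peritoneal macrophages over BMDM (1.62 ± 0.28, 0.00337) passed.

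H2-DMb1, the beta chain of H2-DM, had 14.07 and 13.89 in intestinal, 12.53 and 12.60 in adipose, 12.56 in Kupffer, 12.56 in splenic and 12.18 in alveolar macrophages, against 10.28 and 10.10 in peritoneal macrophages and 9.65 in BMDM. Intestinal arrays were apart from all others, adipose, Kupffer and splenic macrophages were level, and peritoneal macrophages were close to BMDM. The gap over adipose macrophages was 1.41 ± 0.16 (adjusted p = 0.000597), that of alveolar over peritoneal macrophages 1.99 ± 0.19 (0.000254), and peritoneal macrophages over BMDM, 0.54 ± 0.19, did not pass (0.0632). A second probe correlated with it at r = 0.99 over the 10 arrays and also put intestinal over adipose macrophages (1.72 ± 0.15), but with it splenic (-0.57 ± 0.19, adjusted p = 0.0471) and alveolar macrophages (-0.62 ± 0.19, 0.0333) were lower than adipose macrophages. H2-DMb2 is a near-identical neighbour gene that the H2-DMb1 probes may also read, and the same caution applies to H2-Eb1 and H2-Eb2.

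H2-DO, the inhibitor of H2-DM, is known mainly from B cells and some dendritic cells. H2-Oa, its alpha chain, had 11.02 and 10.87 in intestinal, 6.22 and 5.91 in adipose, 6.00 in Kupffer, 8.26 in splenic and 9.21 in alveolar macrophages, against 5.65 and 5.28 in peritoneal macrophages and 5.41 in BMDM. Intestinal, alveolar and splenic macrophages were high and far from the rest. Adipose macrophages, although detected, and the undetected Kupffer, peritoneal and BMDM arrays lay between 5.28 and 6.22. Relative to BMDM, H2-Oa was at least 27.4-fold higher in intestinal, 8.22-fold in alveolar and 4.25-fold in splenic macrophages (adjusted p 7.21e-06 to 0.000236), but adipose minus BMDM (0.65 ± 0.24, 0.0609) and Kupffer minus BMDM (0.59 ± 0.28, 0.128) did not pass. The steps from intestinal to alveolar (1.74 ± 0.24), alveolar to splenic (0.95 ± 0.28) and splenic to adipose macrophages (2.20 ± 0.24) all passed (adjusted p 0.000452 to 0.0339).

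H2-Oa thus ranked the tissues differently from the classical chains. Splenic minus adipose macrophages was 2.20 ± 0.24 for H2-Oa (adjusted p = 0.000452) but -1.89 ± 0.45 for H2-Aa (0.0153) and -2.39 ± 0.28 for H2-Eb1 (0.000581). In the background, 17.9% of transcripts were higher and 20.5% lower in splenic than in adipose macrophages. H2-Ob, the beta chain of H2-DO, had 9.08 and 9.06 in intestinal, 6.25 and 5.96 in adipose, 5.79 in Kupffer, 6.83 in splenic and 7.77 in alveolar macrophages, against 6.62 and 6.05 in peritoneal macrophages and 4.67 in BMDM. It followed H2-Oa over the 10 arrays (r = 0.936), with the same 3 groups on top, although its splenic value was only just above the higher peritoneal array.

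**Figure D2:**
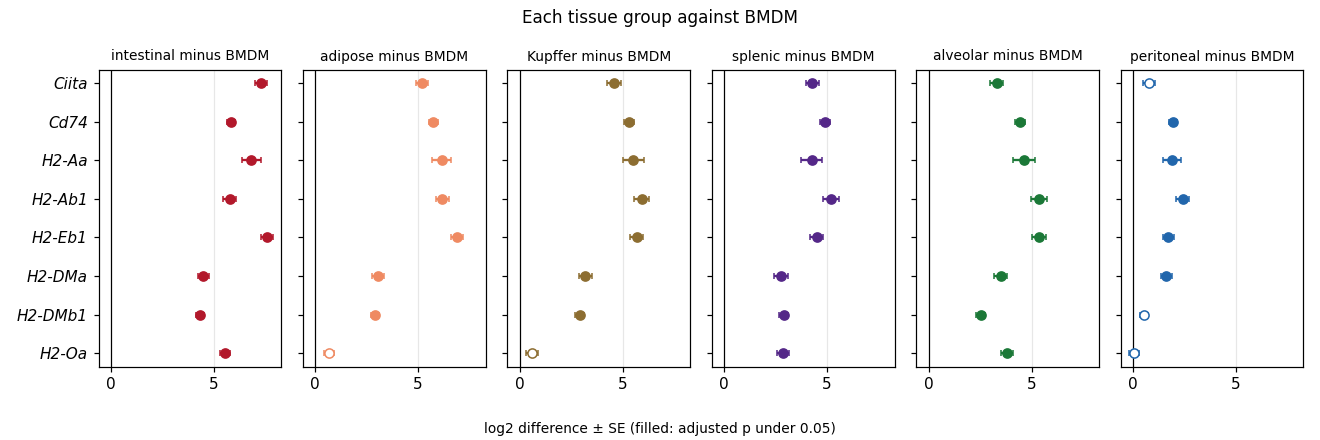
Log2 difference from BMDM (horizontal axis) with its SE for the 8 genes in each of the 6 tissue groups; filled points passed an adjusted p of 0.05. Intestinal macrophages show differences of 4.32 to 7.59, and H2-Oa is near 0 in adipose, Kupffer and peritoneal macrophages.

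Counted over the members, 43 of the 48 differences between a tissue and BMDM passed, all of them upward. All 8 were higher in intestinal macrophages (median log2 difference 5.81; 29.9% of all transcripts were called higher, and the median over all transcripts was 0.11). In adipose macrophages 7 were higher (median 5.46; background 26.1%), in Kupffer cells 7 (4.94; 22.2%), in splenic macrophages 8 (4.26; 24.9%) and in alveolar macrophages 8 (4.12; 19.1%). The exception in adipose macrophages and Kupffer cells was H2-Oa. In peritoneal macrophages 5 were higher than in BMDM (median 1.67; background 22.2%), and Ciita (0.75 ± 0.29, undetected on both sides), H2-DMb1 and H2-Oa (0.05 ± 0.24) did not pass. These comparisons share the single BMDM array.

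The 3 groups with paired arrays were then compared with each other. All 8 members were higher in intestinal than in peritoneal macrophages (median 4.42, range 2.88 to 6.54; background 24.2%), and 7 were higher in adipose than in peritoneal macrophages (median 3.77; background 19%), with H2-Oa (0.60 ± 0.20, adjusted p = 0.051) not passing. Ciita was at least 52.9-fold higher in intestinal and at least 12.3-fold higher in adipose than in peritoneal macrophages, where it was not detected. Between intestinal and adipose macrophages, 4 of the 8 were higher in intestinal macrophages and none lower (background 15.1% in each direction). The 4 were Ciita, H2-DMa, H2-DMb1 and H2-Oa, the last by 4.88 ± 0.20 (29.5-fold), whereas Cd74, H2-Aa, H2-Ab1 and H2-Eb1 had differences of -0.38 to 0.71. For Cd74 this depended on the probe, since the dimmer one, described above, passed. Whether a difference passed also rested on the spread of all paired arrays, which was widest for the peritoneal pair. The SD of the difference between paired arrays was 0.52 there, 0.228 for intestinal and 0.244 for adipose arrays. Over the 3 comparisons, 19 of 24 member differences passed, and 23 did with the array set, described below, as a block. The 4 members that did not pass are thus not shown to be level between intestinal and adipose macrophages.

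**Figure D3:**
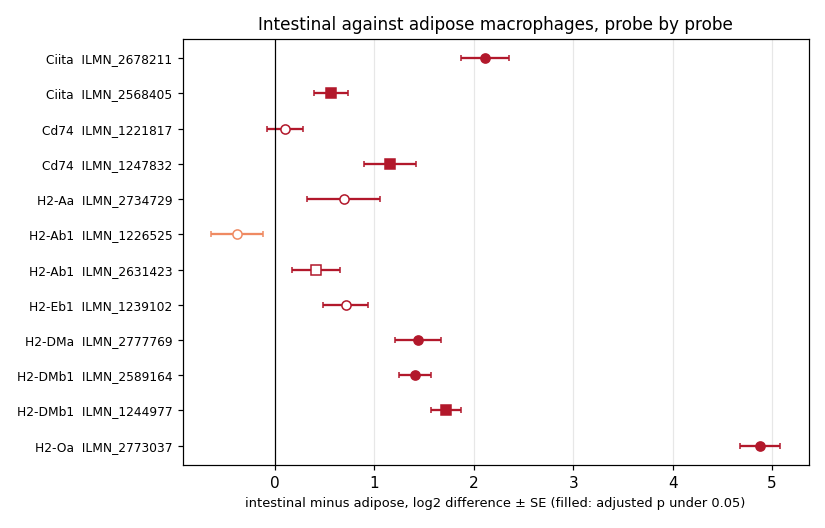
Intestinal minus adipose log2 difference with its SE for each of the 12 probes of the 8 genes (rows); circles are the probes used and squares the other probe of the same gene, filled where the adjusted p was under 0.05. Both H2-DMb1 probes lie above 1, while the H2-Ab1 probes lie on either side of 0.

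Over the 21 fixed pairs of groups, between 20.9 and 53.1% of all transcripts passed in either direction. Steps between adjacent group means instead follow each member's own order, and no matching share over all transcripts was computed. Of 48 such steps, 19 passed and 29 did not. The count moved to 31 with the array set, described next, as a block and to 29 without peritoneal replicate 2. The step onto peritoneal macrophages from the group ranked above passed for all members but H2-Oa, and peritoneal macrophages over BMDM passed for Cd74, H2-Aa, H2-Ab1, H2-Eb1 and H2-DMa.

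The arrays formed 2 sets by median raw signal, which no label explains. Peritoneal replicate 1, alveolar, Kupffer, splenic and BMDM arrays were dimmer (medians of 89.83 to 107.9), and peritoneal replicate 2, intestinal and adipose arrays were brighter (135.7 to 166.5). On every array, 22.6 to 26.4% of probes were detected. The probes used for the 8 members were all lower on peritoneal replicate 2 than on replicate 1, by 0.18 to 1.25, whereas the dimmer Cd74 probe was higher there (8.10, with 7.30 on replicate 1). Within the brighter set, intestinal minus peritoneal replicate 2 was 3.20 to 6.87 and adipose minus peritoneal replicate 2 was 0.79 to 5.49 for the 8 members. Within the dimmer set, alveolar minus BMDM was 2.53 to 5.36, Kupffer minus BMDM 0.59 to 5.92, splenic minus BMDM 2.76 to 5.19 and peritoneal replicate 1 minus BMDM 0.24 to 2.81. Intestinal and adipose macrophages shared no set with BMDM. A fit with the set as a block, bridged by the peritoneal pair, called 47 of the 48 differences from BMDM. Its set effect came from that pair alone, and its lower values on replicate 2 raise the fitted intestinal and adipose differences from BMDM. This count therefore cannot show whether those differences are free of the set.

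The wide spread of the class II genes was set beside related lists. H2-Eb2, a further beta chain gene, was highest in intestinal macrophages (8.65 and 8.61), followed by adipose macrophages (7.38 and 7.19), and was not detected in peritoneal macrophages (4.73 and 4.71) or BMDM (4.78). Among 11 tested genes of the class II transcription machinery and its inducers, 10 passed the F test (background 79.6%), but their median range was 1.61, near the 1.66 of all transcripts. Rfx5, a subunit of the RFX complex, had a range of 1.07, Rfxap of the same complex 0.46 without passing (F test adjusted p = 0.15), and Nfya and Nfyb, subunits of NF-Y, 1.19 and 1.02.

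Irf1, an interferon-induced factor that acts on a Ciita promoter, had its highest mean in intestinal macrophages. It had 12.42 and 12.59 in intestinal, 11.48 and 11.60 in adipose, 11.45 in Kupffer, 11.90 in splenic and 10.62 in alveolar macrophages, against 9.91 and 10.18 in peritoneal macrophages and 10.00 in BMDM. It was 2.51 ± 0.21 higher in intestinal macrophages than in BMDM (adjusted p = 9.48e-05), and peritoneal macrophages overlapped BMDM (0.05 ± 0.21, 0.876). Irf8, a macrophage and dendritic cell factor, was instead highest in splenic macrophages (11.65, against 9.34 in BMDM) and Irf2 in peritoneal macrophages (12.66 and 12.75, against 10.36 in BMDM). Spi1, the myeloid factor PU.1, ranged over 1.61, and Ifngr1, an interferon gamma receptor chain, over 2.21 with its top in Kupffer cells (11.52). Usf1, a factor that binds a Ciita promoter, was 2.09 ± 0.27 higher in intestinal macrophages than in BMDM (adjusted p = 0.000692), and Ifngr2, the partner chain of Ifngr1, was lower in adipose macrophages than in BMDM (-0.70 ± 0.20, 0.0231). In intestinal macrophages against BMDM, 6 of the 11 were higher (background 29.9%) and none lower (23.2%), with a median of 0.97.

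**Figure D4:**
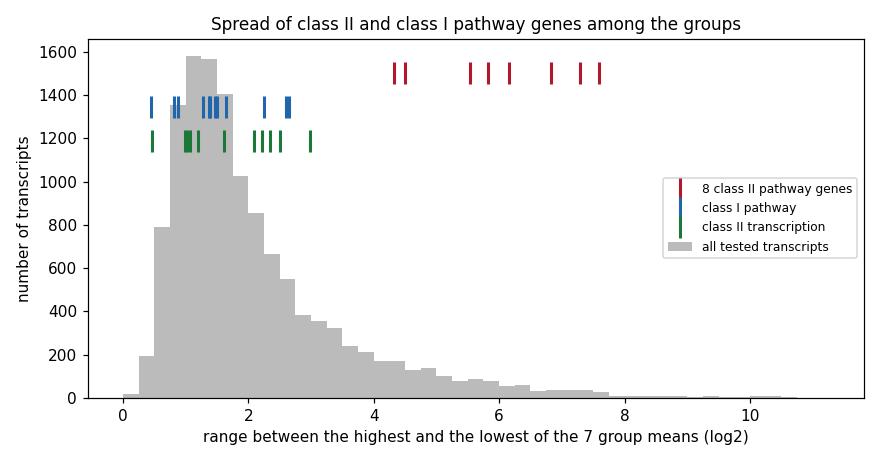
Range between the highest and the lowest of the 7 group means (horizontal axis, log2) for all 12845 transcripts (histogram, counts on the vertical axis) and, as ticks, for the 8 class II genes, 12 class I pathway genes and 11 class II transcription genes. The class II ticks start at 4.32, beyond the highest class I tick at 2.65.

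Genes that process antigen for class II did not move as one group. Of 11 tested, 10 passed the F test (background 79.6%; median range 2.17), and in intestinal macrophages against BMDM 3 were higher and 4 lower, with a median of -0.10 (of all transcripts, 23.2% were lower). Marchf1, a ubiquitin ligase that removes class II from the surface, was 2.85 ± 0.25 higher in intestinal macrophages and 1.34 ± 0.25 higher in peritoneal macrophages than in BMDM. Ctsd, the endosomal protease cathepsin D, was lower in intestinal macrophages than in BMDM (log2 difference -2.92 ± 0.18, adjusted p = 2.66e-05), and Sppl2a, the protease that clears the Cd74 stub, was lower in intestinal (-2.57 ± 0.56) and adipose macrophages (-2.29 ± 0.56) than in BMDM. Lgmn, the asparagine endopeptidase, was lowest in alveolar macrophages (11.23, against 13.51 in BMDM).

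Costimulatory and contact genes also took their own orders. Cd86, a ligand of CD28, was higher than in BMDM in all 6 tissues, by 1.83 ± 0.21 in alveolar to 5.24 ± 0.21 in splenic macrophages. Cd274, the inhibitory ligand PD-L1, was higher in alveolar macrophages (12.57) and intestinal macrophages (12.26 and 12.33), against 8.68 and 8.61 in adipose macrophages, 7.97 and 7.54 in peritoneal macrophages and 10.06 in BMDM. Intestinal minus adipose macrophages was 3.64 ± 0.18 for Cd274 (adjusted p = 1.26e-05) and 2.11 ± 0.15 for the adhesion molecule Icam1 (6.83e-05), but -0.13 ± 0.15 for Cd86 (0.562). Cd40, the receptor for T cell CD40 ligand, was not detected in splenic macrophages (5.93, against 9.44 in BMDM).

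The class I pathway, which presents cytosolic peptides, varied much less. Of 12 tested genes, 10 passed the F test (background 79.6%), with a median range of 1.42. B2m (14.29 to 14.89) and H2-D1 (14.27 to 15.26) were bright on every array, near the highest normalized value of 15.54, so their ranges (0.45 and 0.88) may be compressed. Nlrc5, the class I counterpart of Ciita, had 9.26 and 9.19 in intestinal, 8.09 and 7.99 in adipose, 8.93 in Kupffer, 9.26 in splenic and 6.61 in alveolar macrophages, against 7.41 and 7.60 in peritoneal macrophages and 8.98 in BMDM. BMDM thus lay among the high groups for Nlrc5 and at the bottom for Ciita. Intestinal macrophages did not pass against BMDM (0.24 ± 0.19, adjusted p = 0.319) and alveolar macrophages were lower than BMDM (-2.37 ± 0.22, 0.000251). The peptide transporter gene Tap1 and the immunoproteasome gene Psmb9 were among 7 of the 12 that were higher in intestinal than in adipose macrophages (by 1.54 ± 0.25 and 1.64 ± 0.15; background 15.1%). Lower were 2 of the 12 (background 15.1%), among them Tapbp, which helps load class I molecules (-0.68 ± 0.19).

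Over the 10 arrays, the 7 members other than H2-Oa followed each other closely, with r between 0.88 and 0.99 (median 0.95 over 21 pairs). H2-Oa correlated with them at 0.50 to 0.79 (median 0.63). The points are the same 10 arrays throughout, of which 6 come in pairs, so these values only describe the profiles. The named genes most like the mean standardized profile of the 8 were Arhgap9 (r = 0.964), Itpkc (0.958), Ccdc28b (0.955), Il4i1 (0.955), Map3k12 (0.95), Nfkbiz (0.947), Lgals4 (0.945), Zfp217 (0.942), Egr1 (0.94) and Pim3 (0.934). Il4i1, a secreted amino acid oxidase, had 10.34 and 10.31 in intestinal, 8.13 and 8.14 in adipose, 9.33 in Kupffer, 9.07 in splenic and 8.45 in alveolar macrophages, against 5.14 and 4.97 in peritoneal macrophages and 4.90 in BMDM. Map3k12, a kinase, followed the profile over a span of only 13.05 to 13.43 and did not pass the F test (adjusted p = 0.401). For H2-Oa the most alike genes were Acap1 (r = 0.978), Ffar2 (0.976), a short-chain fatty acid receptor, and Tead2 (0.969). Ffar2 had 10.59 and 10.68 in intestinal, 5.08 and 5.23 in adipose, 4.49 in Kupffer, 7.70 in splenic and 10.41 in alveolar macrophages, against 4.49 and 4.63 in peritoneal macrophages and 4.74 in BMDM.

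**Figure D5:**
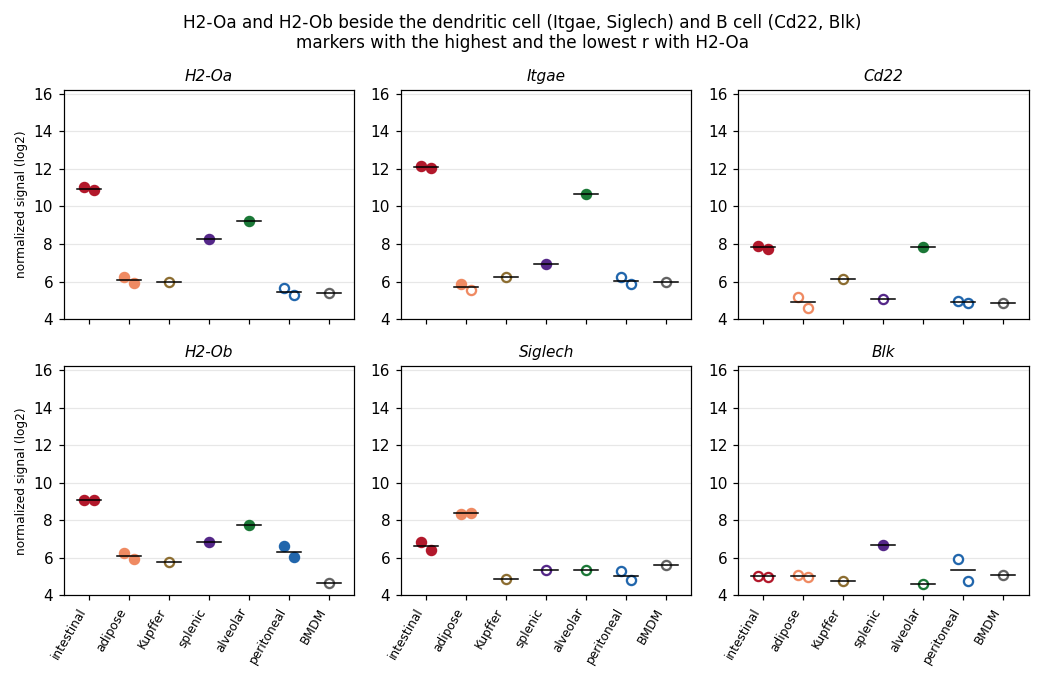
Normalized log2 signal of H2-Oa and H2-Ob on each array, beside the tested dendritic cell markers (Itgae, Siglech) and B cell markers (Cd22, Blk) with the highest and the lowest r with H2-Oa; filled points are detected and bars are group means. Itgae is high in intestinal and alveolar macrophages, Siglech is highest in adipose macrophages (8.35 and 8.37), and Blk is highest in splenic macrophages (6.68).

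The macrophage genes tested (Adgre1, Fcgr1, Mertk, Lyz2 and Cd14) were detected on all 10 arrays, and the summed level of each tissue's list was highest in its own group, for example through Cx3cr1 in intestinal macrophages (13.59 and 13.47, against 10.46 in BMDM). Single markers departed from this: Siglecf and Cd5l, a Kupffer cell marker, were detected on no array, and Cd163 not in splenic macrophages. Timd4 was highest in peritoneal macrophages, Il10 in Kupffer cells and Fcna in splenic macrophages. Cd93, on the peritoneal list, was highest in BMDM (13.41), and Folr2, on the Kupffer and adipose lists, was highest in adipose macrophages (14.39 and 14.47, against 13.94 in Kupffer cells). Markers of other class II-expressing cells were present too. Of 12 tested dendritic cell markers, 12 were detected in intestinal macrophages (summed linear signal 13943 to 14136), 6 in adipose (3204 to 3635), 4 in Kupffer (3292), 7 in splenic (3166) and 9 in alveolar macrophages (6326), against 3 in peritoneal macrophages (914 to 1336) and 2 in BMDM (652), while Flt3 and Xcr1 were detected on no array. Batf3 and Itgax are not restricted to dendritic cells, and alveolar macrophages are known to express Itgax. All counts of detected markers also depend on the array. The lowest signal of a detected probe was 5.83 to 5.88 on the intestinal and adipose arrays, but 6.17 to 6.33 on the dimmer arrays. Ccr7 at 6.26 in Kupffer cells, for example, counted as undetected.

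Of 8 tested B cell markers, 7 were detected in splenic macrophages (8451), 5 in intestinal (2524 to 2560), 1 in adipose (687 to 724), 2 in Kupffer (1807) and 5 in alveolar macrophages (1212), against 2 in peritoneal macrophages (492 to 862) and 1 in BMDM (365), while Ms4a1 and Pax5 were detected on no array. Of 8 tested endothelial markers, 5 were detected in intestinal (6008 to 6528), 7 in adipose (2141 to 2177), 8 in Kupffer (11411), 3 in splenic (8662) and 7 in alveolar macrophages (7017), against 1 in peritoneal macrophages (337 to 357) and 2 in BMDM (486). In splenic macrophages these were Pecam1 (12.62), Esam (11.03) and Kdr (6.92), while Cdh5, Tek, Emcn, Cldn5 and Flt1 were not detected. Pecam1 was also the brightest of the list in intestinal macrophages (12.19 and 12.36). Cdh5, the brightest in Kupffer cells (12.21), is on the Kupffer cell list too, so these sums do not measure endothelial cells alone. The dendritic cell and endothelial sums were thus lowest in peritoneal macrophages and BMDM, while the B cell sums of peritoneal and adipose macrophages overlapped. H2-Oa followed Itgae (12.13 and 12.03 in intestinal, 10.66 in alveolar and 6.93 in splenic macrophages, against 5.95 in BMDM; r = 0.959 over the 10 arrays) and Ccr7 (r = 0.947), but not every marker of that list, where r with H2-Oa went down to 0.0952 for Siglech and was 0.257 for Fscn1, 0.358 for Cd209a and 0.501 for Zbtb46. Among B cell markers it was 0.877 for Cd22 and -0.0168 for Blk. The part of such cells in the H2-Oa result, or in that of any other member, was not tested.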

How the data were processed

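The authors deposited, per the file headers, a raw signal intensity per probe on a linear scale with a detection p-value, and a value table that appeared quantile normalized between arrays (the same lowest and highest intensity on every array); no source used here names the scanner software. Per the labels' protocols, RNA was DNase treated and biotin-labelled cRNA was made with the Ambion MessageAmp kit. From the raw intensities, limma 3.58.1 in R 4.3.3 (neqc: normexp from detection p-values, offset 16, quantile) gave log2 values; the deposited log2-transformed value table served as an alternative.

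Of 46632 probes, 29976 had 1 gene symbol in the platform annotation, 10 several and 16646 none. The probe with the highest mean stood for a gene, and transcripts detected (p under 0.01) on at least 1 array were kept (12845). One mean per group was fitted over all 10 arrays (lmFit, eBayes; 3 residual degrees of freedom), with Benjamini-Hochberg adjustment over all transcripts in each of 21 contrasts and in the F test, at 0.05. Where a group was undetected, folds are bounds against the lowest normalized signal among detected probes. No depth exists for arrays; the number of arrays limits the precision.

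Named genes were the members, up to 4 per related list with the widest range among those past the F test, all class II chain and transcription genes, cell markers and the most alike profiles. The members, lists and tests were chosen with earlier results of these data known. Some listed genes are not reported here. Samples of equal replicate number did not deviate together.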

Additional observations from a re-analysis of the deposited data

How the results depend on the processing

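Across 10 other settings (no background correction, median scaling, the deposited values, another offset, 2 detection filters, the mean of probes, array set or replicate number as a block, trended variance), the F test called 9340 to 11499 transcripts against 10219 and all 8 members, and 17 to 31 of 48 neighbour steps passed against 19. The 31 came with the array set as a block. The other probes, an alternative chosen after seeing the data, left 7 members in the F test and 38 of 48 differences from BMDM, against 43. Leaving out 1 array gave 8440 to 11944 transcripts, 8 members, 43 to 47 differences from BMDM, 19 to 23 of 24 paired-group differences, 31 to 41 pathway genes past the F test (37 in the reported fit) and 16 to 29 neighbour steps, the 29 without peritoneal replicate 2. The counts of differences from BMDM and of neighbour steps cover only the fits without 1 array of a pair. All differences from BMDM rest on the single BMDM array, and none exists without it. Some signs turned, none of them past the threshold. Intestinal minus adipose became 0.02 (mean of probes) and 0.41 (other probe) for H2-Ab1, and, for Cd74, -0.02 without intestinal replicate 1 (0.23 without replicate 2). With the other Ciita probe, peritoneal, splenic and adipose minus BMDM became -0.31, -0.2 and -0.32 and adipose minus peritoneal -0.01. H2-Oa peritoneal minus BMDM became -0.14 without peritoneal replicate 1 (0.23 without replicate 2). The cause was not tested. Low signal limits Ciita and H2-Oa, whose values in undetected groups are only bounds. With the replicate block, 69 of 72 member contrasts kept direction and side of the threshold and 3 came to pass: H2-Eb1 intestinal minus adipose (adjusted p = 0.0444), H2-Oa adipose minus BMDM (0.0305) and H2-Oa adipose minus peritoneal (0.039). The replicate numbers did not pair the samples (r of the replicate differences 0.0461, -0.143 and -0.0918), and the block called 9556 transcripts.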

Other observations

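Other non-macrophage markers took further orders. Of 6 tested T and NK cell markers, 5 were detected in splenic macrophages (summed linear signal 831), 3 in intestinal (654 to 703), 2 in Kupffer (362) and 3 in alveolar macrophages (490), and none in adipose macrophages (199 to 204), peritoneal macrophages (176 to 188) or BMDM (195). Cd4, the brightest of them in intestinal macrophages (8.67 and 8.46), is on the intestinal macrophage list too, so that sum does not measure T and NK cells alone. Of 4 tested monocyte markers, 4 were detected in intestinal (1814 to 1819), 3 in adipose (1611 to 1625), 1 in Kupffer (2160), 2 in splenic (347) and 1 in alveolar macrophages (432), against 1 in peritoneal macrophages (1557 to 1630) and 4 in BMDM (3295). Of 10 intestinal epithelial genes, 6 (Epcam, Fabp1, Fabp2, Krt20, Cdx1 and Muc2) were detected on no array, and the other 4 were all detected in intestinal macrophages (839 to 949). Their summed level was higher in Kupffer cells (1375), mostly through Apoa1 (10.27). Vil1 (7.51 and 7.19) and Defa24 (7.24 and 7.07) were detected on the intestinal arrays only. Lgals4, named above among the profiles most like the members, is also on this list.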
